A study of Macaca mulatta with 30 samples.

Results

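Cerebral cortex of rhesus macaque (Macaca mulatta) was compared with 4 other sources of RNA on the rhesus macaque GeneChip. The cortex arrays were chosen by their tissue label and numbered 6 of the 30 arrays of the series. The other 24 arrays were 6 each of an immortalized fibroblast line, pancreas, testis and thymus. Each source was 1 RNA sample, of which 2 aliquots were labeled and hybridized at each of 3 centers, Oregon, Nebraska and Yerkes. The cortex RNA was extracted at Yerkes, the fibroblast RNA at Nebraska and the RNA of pancreas, testis and thymus at Oregon, so that for cortex the tissue and the place of extraction cannot be told apart. Age, sex and the number of animals behind each RNA were not given in the sources used here, no treatment was named, and the fibroblasts are a cell line and not a tissue. Because there was 1 RNA per tissue, the p-values below measure the spread of labeling and hybridization and not that between animals.

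Cerebral cortex is a mixture of cells. Excitatory neurons release glutamate and inhibitory interneurons release GABA, at synapses where vesicles fuse with the membrane of the axon terminal and receptors lie on the facing dendrite. Astrocytes take up transmitter and supply energy substrates, oligodendrocytes wrap axons in myelin, microglia are the resident phagocytes, and blood vessels supply endothelium and mural cells. Mature neurons do not divide. A bulk array reads the sum over these cells, so that fewer cells of a type and less RNA per cell cannot be told apart.

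Signals are on a log2 scale, where a difference of 1 is a 2-fold difference, and levels are compared between tissues for 1 probeset and never between probesets. A gene was called higher in cortex when limma, with center as a term, placed it above all 4 other tissues with an adjusted p below 0.05 and by at least 1 over the highest of them. It was called lower when it lay below each of them by the same criteria. Each center held every tissue, and its array means lay within 6.898 to 6.927 (Yerkes), 6.349 to 6.385 (Nebraska) or 6.317 to 6.333 (Oregon). The ranges given for a tissue pool the 3 centers without adjustment. Ranges that overlap can therefore still be apart within each center. The arrays of cortex showed the 3 marker genes given for it. MBP, a structural protein of myelin, was between 13.04 and 14.06 on the 6 cortex arrays (median 13.62), against 6.05 to 6.95 (median 6.21) in pancreas, the nearest tissue. VSNL1, a neuronal calcium sensor, was between 12.97 and 13.52 (median 13.07) in cortex and between 6.39 and 7.02 (median 6.72) in testis. GPM6A, a membrane glycoprotein of neurons, was between 13.03 and 13.44 (median 13.13) in cortex and between 5.63 and 6.26 (median 5.76) in fibroblast. The groups of arrays did not overlap for any of the 3. These markers are also among the 20 genes furthest above the other tissues on these same arrays. Their separation is therefore a description and not separate support for the label.

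**Figure D1:**
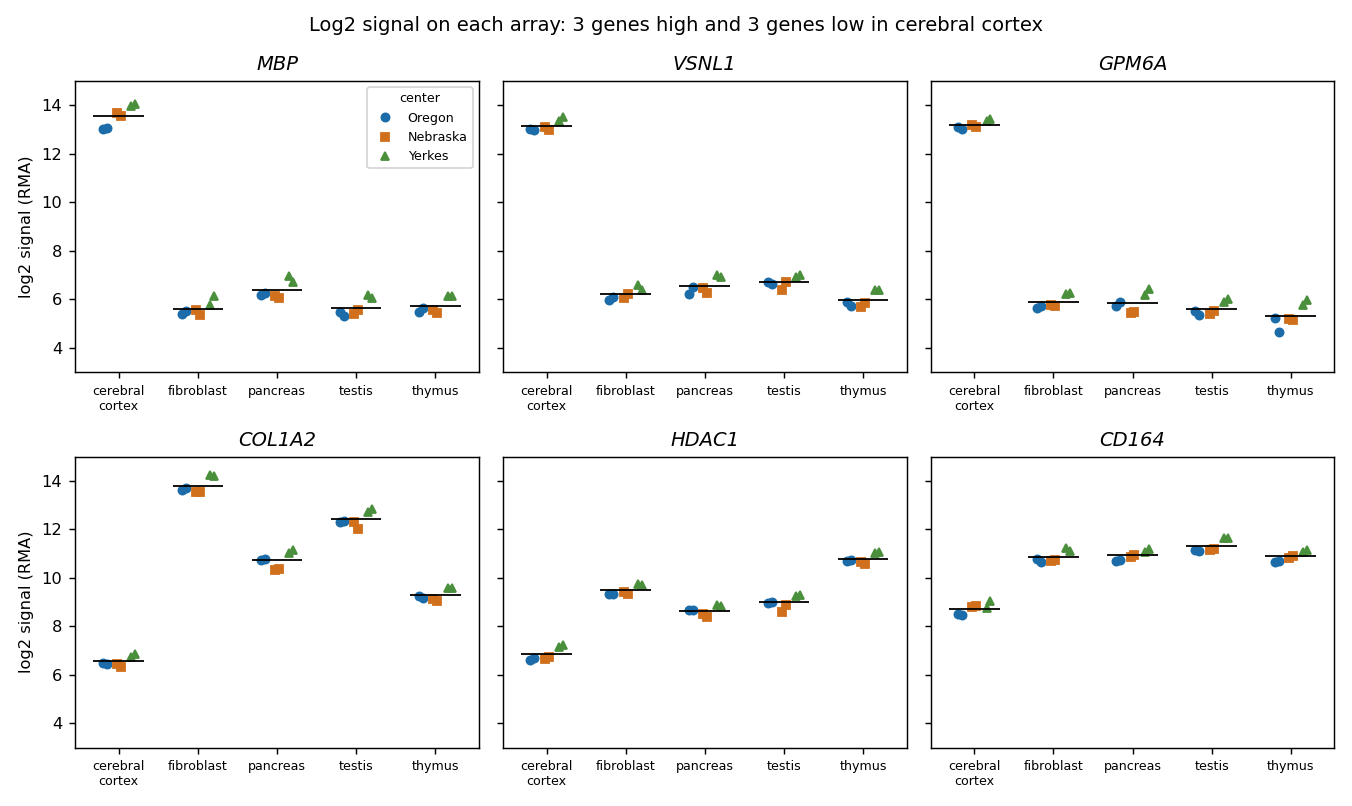
Log2 signal (y axis) of MBP, VSNL1, GPM6A, COL1A2, HDAC1 and CD164 on all 30 arrays, grouped by tissue along the x axis, with the center as the marker shape and the mean of 6 arrays as a line. In cortex the first 3 genes lie at 12.97 or above on every array, and COL1A2, HDAC1 and CD164 lie below every array of the other tissues.

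Far more transcripts were higher in cortex than lower. Of 52865 probesets, 2369 (4.48%) were higher than in every other tissue and 459 (0.868%) were lower. With 1 probeset a gene, 795 of 14133 genes (5.63%) were higher and 213 (1.51%) were lower. All 795 and all 213 had the same direction at each of the 3 centers, and 675 and 159 of them differed by at least 1 at each. The differences of the higher genes were also larger, with a median of 1.78 against -1.31 for the lower genes. A difference of 4 or more was found for 54 higher genes and 0 lower genes, and one between 2 and 4 for 284 and 16. Without the minimum difference, 5177 probesets (9.79%) and 1725 genes (12.2%) were higher, and 3259 probesets (6.16%) and 1338 genes (9.47%) lower, at the same adjusted p. With a minimum of 2, 1028 probesets (1.94%) and 338 genes (2.39%) were higher, and 32 probesets (0.0605%) and 16 genes (0.113%) lower. Within each center, all cortex arrays lay apart from all others for 793 of the 795 higher and for all 213 lower genes. Over all genes this held for 11.8% on the high side and 9.4% on the low side. The called genes were picked on these same arrays by their difference. Their separation and their shared direction at each center therefore follow largely from the selection and are not separate support. Probesets without a single gene symbol made up 953 (40.2%) of the higher and 145 (31.6%) of the lower probesets and are not described by gene.

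The tissue nearest to cortex differed from gene to gene. For the 795 higher genes it was pancreas for 316 (39.7%), testis for 249 (31.3%), fibroblast for 149 (18.7%) and thymus for 81 (10.2%). For the 213 lower genes it was pancreas for 96 (45.1%), testis for 49 (23.0%), thymus for 46 (21.6%) and fibroblast for 22 (10.3%). Pancreas, whose arrays the study's quality assessment treats with caution, thus set the size of the difference more often than any other tissue in each direction. When the pancreas arrays were left out, 948 genes (6.71%) were higher and 595 (4.21%) were lower than in the remaining 3 tissues. A call against 3 tissues is easier to meet than one against 4, and no other tissue was left out for comparison. Whether the rise in lower genes is particular to pancreas was therefore not tested. The counts without pancreas are given below where they differ by more than 1.5 times.

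**Figure D2:**
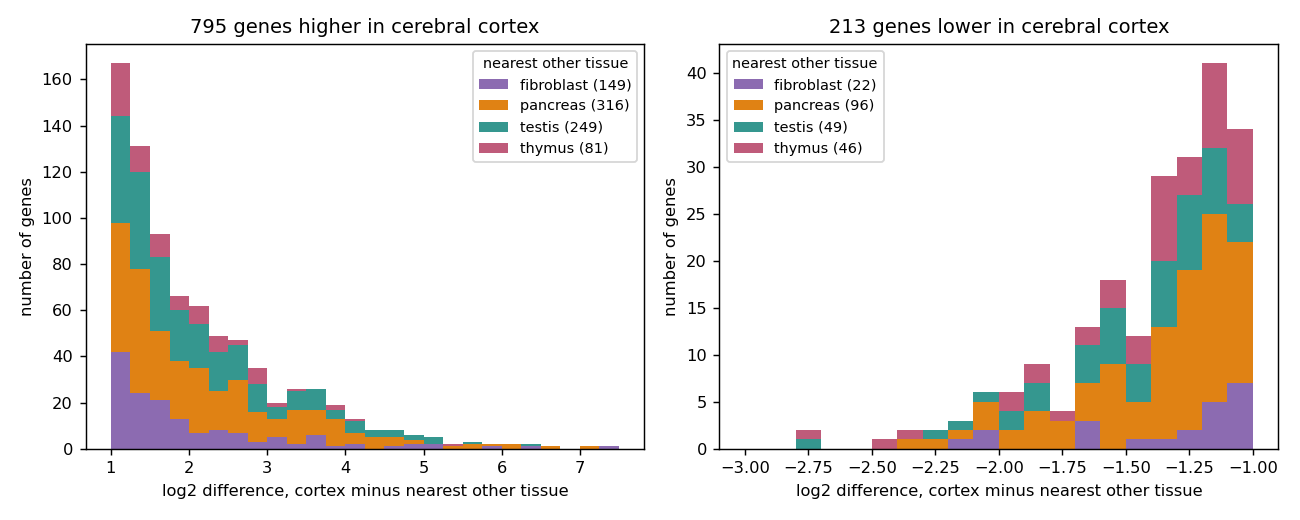
Number of genes (y axis) by the log2 difference between cortex and its nearest other tissue (x axis) for the 795 higher and the 213 lower genes, stacked by which tissue was nearest. The higher genes reach a difference of 7.30 and the lower genes one of -2.74.

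The 20 genes highest above the other tissues were led by proteins of neurons and myelin. GPM6A was 7.30 (SE 0.09) above fibroblast (limma, adjusted p = 6.52e-33), and MBP 7.19 (SE 0.09) above pancreas (adjusted p = 2.93e-33). VSNL1 was 6.43 (SE 0.07) above testis (limma, adjusted p = 8.99e-34). Several others act on the cytoskeleton of axons and dendrites. DPYSL3, a collapsin response mediator of growth cones, was between 12.97 and 13.69 in cortex and between 6.29 and 6.86 in pancreas, a difference of 6.69 (SE 0.08). The kinesin heavy chain KIF5C, a motor of axonal transport, was between 12.32 and 12.71 in cortex and between 6.10 and 6.65 in pancreas, a difference of 6.19 (SE 0.10). STMN2, a microtubule regulator of neurons, differed by 5.15 (SE 0.11) from fibroblast. None of the arrays of these genes overlapped between cortex and another tissue.

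Genes of the synapse and of neuronal signaling formed the next group among the 20. NRGN, a calmodulin-binding protein of dendritic spines, was between 11.93 and 12.93 in cortex and between 6.18 and 7.09 in pancreas, a difference of 5.89 (SE 0.09). SYT1, the calcium sensor of vesicle fusion, was between 12.45 and 12.89 in cortex and between 6.54 and 7.18 in fibroblast, a difference of 5.87 (SE 0.08), and each of its 4 probesets was higher. Signaling through G proteins was represented by RGS4, a regulator that ends the signal, at 5.55 (SE 0.08), and by GNAO1, a G protein alpha subunit abundant in brain, at 5.51 (SE 0.08), both against pancreas. SLC12A5, the neuronal potassium chloride cotransporter on which inhibition by GABA depends, differed by 5.01 (SE 0.09) from testis, and PCDH8, a protocadherin, by 5.71 (SE 0.11). The neuronal splicing regulator RBFOX1 differed by 5.35 (SE 0.11) from thymus, with each of its 3 probesets higher. The secreted or surface proteins NELL2 and NRN1 differed by 5.11 (SE 0.10) and 4.99 (SE 0.08). HERPUD2 and ZZEF1 were at 5.47 (SE 0.15) and 5.21 (SE 0.07).

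For 4 of these 20 genes the other probesets of the same symbol did not behave alike. GDF6, a growth factor of the bone morphogenetic protein family, was 6.26 (SE 0.12) above fibroblast on 1 probeset, while its other probeset lay -1.72 from the highest other tissue. XKRX was 6.16 (SE 0.07) above pancreas on 1 of 3 probesets, the other two lying at -0.58 and -0.65. KIF5C was higher on 1 of 2 probesets, the second at 0.72, and MOCS1, an enzyme of molybdenum cofactor synthesis, on 1 of 4 at 5.10 (SE 0.12). The gene behind such a probeset rests on the platform annotation, which was not tested here. The same holds for DPYSL3, NRGN, PCDH8, GNAO1, HERPUD2, ZZEF1, SLC12A5 and NRN1, which had 1 probeset each and no other to compare. Over all genes, 381 of the 795 higher genes had several probesets, of which 154 were called on all of them and 145 on 1 alone. Of the 213 lower genes, 136 had several probesets, of which 19 were called on all of them and 96 on 1 alone.

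Gene lists were used to describe where the higher and lower genes lay. The lists were chosen with earlier results of these data known, so their shares are descriptions and carry no test. Over all genes 5.63% were higher and 1.51% lower. List members without a probeset of 1 symbol were not measured. Of 17 general neuron genes measured, 14 (82.4%) were higher and 0 lower, with a median difference of 4.27 from the mean of the other tissues, against -0.09 over all genes. Among the 14, CHGB, a granin of secretory granules, was 3.76 (SE 0.13) above pancreas, and GAP43, a protein of growing axons, 3.12 (SE 0.10) above fibroblast. The smallest difference of the called members was that of UCHL1, a ubiquitin hydrolase of neurons, at 1.25 (SE 0.08), with cortex at 12.41 to 12.97 and fibroblast at 11.13 to 11.70. ENO2, the neuronal enolase, was the member furthest from the rest of the list. It was between 7.66 and 7.98 on the cortex arrays, between 7.75 and 7.98 in thymus and between 11.35 and 11.65 in fibroblast. Its single probeset thus overlapped with thymus and lay 3.69 below fibroblast.

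Excitatory neuron genes were higher for 11 of 18 (61.1%) and inhibitory neuron genes for 5 of 10 (50%), against 5.63% of all genes. In either list 0 were lower. SLC17A7, the vesicular glutamate transporter of cortex, was between 9.52 and 10.70 in cortex and between 4.87 and 6.07 in pancreas, a difference of 4.65 (SE 0.08). Transcription factors of cortical neurons followed, with LMO3 at 3.89 (SE 0.09), MEF2C at 3.83 (SE 0.07), CUX2, of upper layers, at 3.61 (SE 0.10), NEUROD6 at 3.15 (SE 0.10), RORB, of layer 4 neurons, at 2.60 (SE 0.11) and FEZF2, of deep layers, at 1.76 (SE 0.10). BCL11B, also of deep-layer neurons and of T cells, was between 5.06 and 5.68 in cortex, overlapped with testis at 5.00 to 5.73, and reached 7.48 to 8.78 in thymus. TBR1, a factor of early-born glutamatergic neurons, was at 10.33 to 10.78 in cortex and at 9.92 to 10.59 in testis on the probeset used. It differed by 0.30 (SE 0.06), below the minimum, although 1 of its 2 probesets was called. Of the interneuron genes, the peptides NPY and VIP were 2.21 (SE 0.07) and 1.37 (SE 0.09) above the nearest tissue, the calcium buffer PVALB 2.04 (SE 0.11) and LAMP5 2.04 (SE 0.06). Both glutamate decarboxylases make GABA, and they differed in pattern. GAD1 was between 7.94 and 9.04 in cortex and between 6.29 and 7.20 in pancreas, with 3 of 3 probesets higher, whereas GAD2 was between 7.22 and 7.85 in cortex and between 9.10 and 9.78 in thymus.

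Among glia, astrocyte genes were higher for 8 of 14 (57.1%) and oligodendrocyte and myelin genes for 5 of 14 (35.7%). Genes of oligodendrocyte precursors were higher for 3 of 10 (30%) and genes of microglia and myeloid cells for 4 of 15 (26.7%). The share of all genes called higher was 5.63%, and 0 were lower in these lists. GFAP, the astrocyte filament, was between 11.37 and 12.09 in cortex and between 6.79 and 7.66 in pancreas, a difference of 4.72 (SE 0.09). The glutamate transporter SLC1A2 was 4.05 (SE 0.07) above pancreas, the aldolase ALDOC 3.90 (SE 0.05), the calcium-binding S100B 3.72 (SE 0.07) and the connexin GJB6 3.35 (SE 0.12) above testis. GLUD1, a glutamate dehydrogenase that many tissues use, was at 5.28 to 6.17 in cortex and overlapped with thymus, and fibroblast was at 8.69 to 9.35. ALDH1L1, an enzyme of folate metabolism used as an astrocyte marker, was -0.58 (SE 0.08) from thymus.

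MBP was far ahead of the other oligodendrocyte genes. The small heat shock protein CRYAB was 2.77 (SE 0.06) above pancreas, the transcription factor OLIG2 2.15 (SE 0.08), the receptor GPR37 1.54 (SE 0.12) above testis and UGT8, which makes galactolipids of myelin, 1.48 (SE 0.11) above pancreas. CNP, a myelin enzyme, was between 11.80 and 12.26 in cortex and between 11.76 and 12.25 in testis and did not pass (difference 0.08, SE 0.06). TSPAN2, a tetraspanin of oligodendrocytes, was between 5.64 and 6.48 in cortex, overlapped with testis and lay 0.87 below pancreas. Among precursor genes PTPRZ1, a receptor phosphatase, was 3.66 (SE 0.09) above pancreas, and LUZP2 and DSCAM were 1.53 (SE 0.10) and 1.04 (SE 0.10) above the nearest tissue. CSPG4, the NG2 proteoglycan, was between 6.81 and 7.66 in cortex and between 7.30 and 8.24 in fibroblast. With the mean of all probesets of a gene, 5 precursor genes were higher.

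The microglia genes that were called code for a lysosomal protein and for surface receptors. CD68, a lysosomal protein of phagocytes, was between 9.53 and 9.76 in cortex and between 6.83 and 7.48 in testis, a difference of 2.36 (SE 0.10). The receptors GPR34 and P2RY12 were 2.26 (SE 0.16) and 1.49 (SE 0.09) above the nearest tissue and the integrin ITGAM 1.86 (SE 0.10). Thymus held others of the list at higher levels. TYROBP, an adaptor of myeloid receptors, was at 7.08 to 7.50 in cortex and at 8.68 to 8.85 in thymus, and LYZ, lysozyme, at 5.02 to 5.57 in cortex and 10.16 to 10.48 in thymus. Of 14 genes of endothelium and mural cells, 0 were called in either direction, and 1 was higher without the minimum difference, or by at least 1 when pancreas was left out. Of all genes 5.63% were higher and 1.51% lower, 12.2% were higher without the minimum and 6.71% without pancreas. For 14 genes the counts are near these shares. Higher without the minimum was CLDN5, the claudin of the blood-brain barrier, at 7.52 to 8.44 in cortex and 6.65 to 7.53 in pancreas (difference 0.84, SE 0.07, limma adjusted p = 4.62e-11). MYH11, a smooth muscle myosin, was at 6.18 to 7.16 in cortex and 11.23 to 11.64 in testis.

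**Figure D3:**
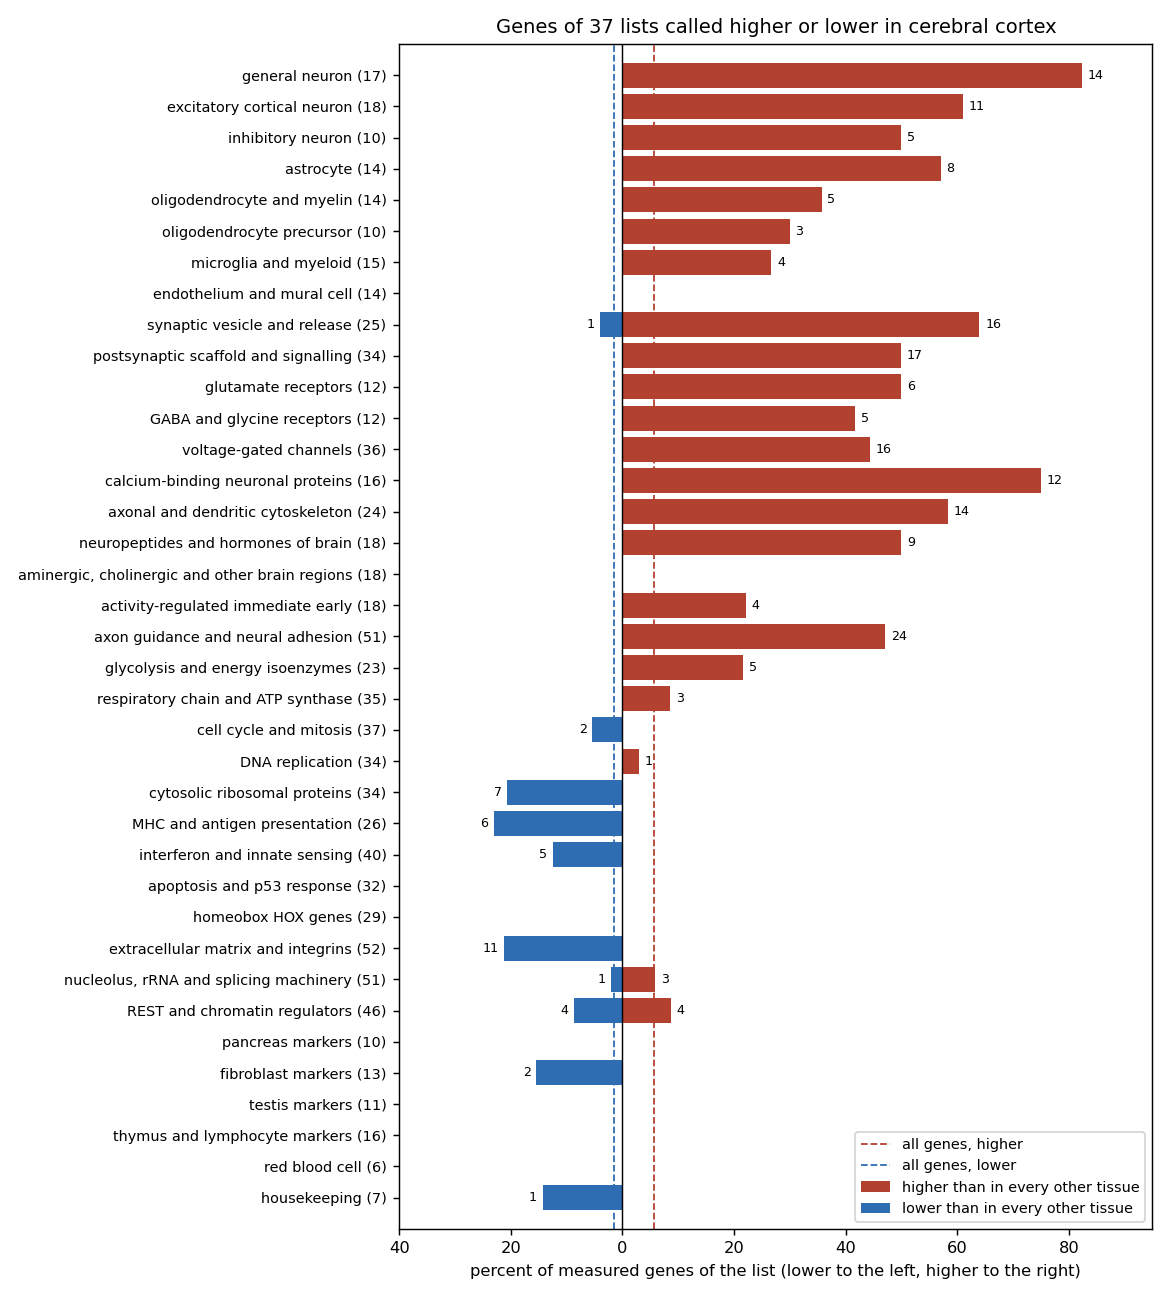
Percent of the measured genes of each of 37 gene lists that were higher (right) or lower (left) in cortex than in every other tissue (x axis, percent), with the number of genes printed at each bar. The dashed lines mark all genes, 5.63% higher and 1.51% lower, and the general neuron, calcium-binding and synaptic vesicle lists reach furthest to the right. The lists were chosen with earlier results of these data known.

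At the synapse, vesicle and release genes were higher for 16 of 25 (64.0%) and postsynaptic genes for 17 of 34 (50%), against 5.63% of all genes. SYT4, a synaptotagmin, was 4.63 (SE 0.09) above pancreas, the active zone protein RIMS3 4.05 (SE 0.07) above testis, and the vesicle glycoprotein SV2B 3.72 (SE 0.09). VAMP2, the vesicle SNARE of neurons, was between 7.47 and 8.56 in cortex and between 6.63 and 7.29 in fibroblast, a difference of 1.13 (SE 0.14). SYPL1, a synaptophysin-like protein found in many cells, was the 1 member called lower. It was between 8.71 and 9.02 in cortex and between 10.22 and 10.76 in fibroblast, a difference of -1.65 (SE 0.07, limma adjusted p = 1.14e-18), and both of its probesets were lower. Of postsynaptic genes, the scaffold DLG2 was 3.86 (SE 0.07) above pancreas, ANKS1B 3.50 (SE 0.12), CNKSR2 3.17 (SE 0.09) and the kinase subunit CAMK2A 2.79 (SE 0.07). NRXN2, a presynaptic adhesion protein, was at 6.28 to 7.54 in cortex and at 6.79 to 7.86 in pancreas. CAMK4, a kinase of neurons and T cells, was at 9.19 to 9.91 in cortex and 11.13 to 11.61 in thymus. LIN7A, a scaffold protein, was at 13.18 to 13.68 in cortex and 13.10 to 13.65 in testis on the probeset used, whereas 5 of its 6 probesets were higher in cortex.

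Receptors for the main transmitters followed. Glutamate receptor genes were higher for 6 of 12 (50%) and those of GABA and glycine receptors for 5 of 12 (41.7%), with 0 lower. Of all genes 5.63% were higher. The AMPA receptor subunits GRIA1 and GRIA4 were 4.13 (SE 0.11) and 3.31 (SE 0.11) above the nearest tissue, the kainate receptor subunit GRIK1 2.62 (SE 0.09) and the NMDA receptor subunit GRIN1 1.54 (SE 0.12). GRIN2C, an NMDA receptor subunit known mainly from cerebellum in rodents, was at 6.26 to 7.11 in cortex and 7.26 to 7.72 in pancreas. The GABA-A receptor subunits GABRA2, GABRA4 and GABRB1 were 4.88 (SE 0.14), 4.16 (SE 0.08) and 3.72 (SE 0.10) above the nearest tissue. GLRB, the beta subunit of glycine receptors, was 1.25 (SE 0.07) above thymus on the probeset used, and each of its 5 probesets was higher. GABRE was at 5.54 to 6.52 in cortex and 7.22 to 7.69 in testis.

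Of voltage-gated channel genes, 16 of 36 (44.4%) were higher and 0 lower, where 5.63% of all genes were higher. CACNA1B, the pore of N-type calcium channels of terminals, was 3.89 (SE 0.08) above pancreas, KCNIP4, which modifies potassium channels, 3.70 (SE 0.09) and the sodium channel SCN2A 3.55 (SE 0.10) above fibroblast. The sodium channel beta subunit SCN3B was 3.81 (SE 0.23) above pancreas, and its cortex arrays spread from 9.0 to 11.07. SCN9A, a sodium channel of peripheral neurons, was at 5.04 to 6.34 in cortex and overlapped with pancreas at 5.57 to 6.50 and fibroblast at 4.97 to 6.07. KCNA3, a potassium channel of lymphocytes as well as neurons, was at 8.36 to 8.74 in cortex and 11.04 to 11.75 in thymus.

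Calcium-binding proteins of neurons were higher for 12 of 16 (75.0%), and 15 of 16 without the minimum difference, where 5.63% and 12.2% of all genes were. CAMKV, a pseudokinase that binds calmodulin, was 3.91 (SE 0.07) above pancreas and the calcium sensor NCALD 3.73 (SE 0.07) above testis. CALM3, one of the genes of calmodulin, was between 10.76 and 12.41 in cortex and between 9.35 and 10.76 in testis, a difference of 1.73 (SE 0.21), and its arrays met at 10.76 over the 3 centers. CAMK2N2, an inhibitor of CaM kinase II, was at 6.77 to 7.95 in cortex and 7.01 to 7.86 in pancreas. Cytoskeletal genes were higher for 14 of 24 (58.3%), such as DCLK1, a microtubule-associated kinase, at 3.79 (SE 0.08), the kinesin KIF5A at 3.73 (SE 0.09) and the neuronal tubulin TUBB3 at 2.59 (SE 0.08), the last on 1 of 4 probesets.

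Genes listed as neuropeptides, hormones and other factors of brain were higher for 9 of 18 (50%), against 5.63% of all genes. Not all of them code for secreted peptides. The intracellular fibroblast growth factor homologues FGF14, FGF12 and FGF13, which bind sodium channels, were 2.75 (SE 0.12), 1.93 (SE 0.12) and 1.85 (SE 0.08) above the nearest tissue. CRH, the corticotropin-releasing hormone, was at 7.26 to 7.91 in cortex, and at 7.75 to 8.15 in thymus, a difference of -0.42 (SE 0.07) that fell short of the minimum. Genes of aminergic and cholinergic neurons and of other brain regions, whose cell bodies lie outside cortex, were called for 0 of 18 in either direction, also without the minimum difference, and 1 was higher when pancreas was left out. Of all genes 1.51% were lower, and without the minimum 12.2% were higher and 9.47% lower. When pancreas was left out, 6.71% were higher. TH, which makes dopamine, was at 5.60 to 6.62 in cortex and 6.03 to 6.98 in testis, and CHAT, which makes acetylcholine, at 5.59 to 6.66 in cortex and 5.84 to 6.71 in fibroblast. SLC6A3, the dopamine transporter, was at 6.60 to 7.69 in cortex and 6.61 to 7.72 in thymus. GNRH1, of hypothalamus, was at 4.66 to 5.93 in cortex and 6.43 to 6.97 in testis.

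Immediate early genes, which neurons induce with activity, were higher for 4 of 18 (22.2%), against 5.63% of all genes. NPTX2, a pentraxin of excitatory synapses, was 2.07 (SE 0.10) above testis, the scaffold HOMER1 1.76 (SE 0.10), the nuclear receptor NR4A2 1.45 (SE 0.07) and ARC, which acts on AMPA receptor traffic, 1.29 (SE 0.08) above pancreas. FOS, a transcription factor induced in many cells, was at 7.26 to 7.86 in cortex and 8.15 to 8.59 in fibroblast. BTG2, an antiproliferative gene, was at 6.01 to 6.95 in cortex and 8.11 to 9.65 in thymus. Guidance and adhesion genes were higher for 24 of 51 (47.1%), led after PCDH8 by the cadherin CDH10 at 3.88 (SE 0.09), the adhesion molecule CADM2 at 3.69 (SE 0.12) and the ephrin receptor EPHA4 at 3.35 (SE 0.11). NCAM1, the neural cell adhesion molecule, was not called on the probeset with its highest signal, at 7.21 to 7.59 in cortex and 9.45 to 9.56 in thymus. However, 7 of its 10 probesets were higher in cortex.

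Genes of energy metabolism did not all behave alike. Of 23 glycolysis and energy genes, 5 (21.7%) were higher, and of 35 genes of the respiratory chain and ATP synthase, 3 (8.57%), close to the 5.63% over all genes. CKB, the brain creatine kinase, was between 12.20 and 12.64 in cortex and between 8.77 and 9.35 in testis, a difference of 3.31 (SE 0.07). CKM, the creatine kinase of muscle, was also higher, at 10.21 to 10.55 in cortex and 7.50 to 7.76 in thymus (difference 2.77, SE 0.11), on 2 of its 3 probesets. The enzymes of the malate-aspartate shuttle GOT1 and MDH1 were 2.00 (SE 0.06) and 1.78 (SE 0.08) above the nearest tissue. HK2, a hexokinase of muscle and growing cells, was at 5.52 to 6.10 in cortex and 6.30 to 6.82 in thymus (difference -0.80, SE 0.07), and LDHA, the muscle form of lactate dehydrogenase, at 10.69 to 10.91 in cortex and 11.38 to 11.80 in fibroblast. In the respiratory chain UQCRB, of complex III, was 2.51 (SE 0.08) above testis and NDUFA4 and NDUFS1 were 1.78 (SE 0.06) and 1.15 (SE 0.08) above fibroblast. ATP5PB, of ATP synthase, was at 5.45 to 6.24 in cortex and 6.12 to 6.74 in pancreas.

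Genes lower in cortex than in every other tissue were fewer and of other kinds. The lowest was COL1A2, a chain of type I collagen, at 6.32 to 6.85 (median 6.48) on the cortex arrays and 9.05 to 9.59 (median 9.22) in thymus, the nearest tissue, while its median was 13.67 in fibroblast. The difference was -2.74 (SE 0.06, limma adjusted p = 6.29e-25). RPL22L1, a paralog of a ribosomal protein, was at 8.08 to 8.62 in cortex and 10.84 to 11.34 in testis, a difference of -2.72 (SE 0.07). The arrays of cortex lay below all 24 others for both genes. The Y-box protein YBX3, which binds DNA and RNA, differed by -2.38 (SE 0.08) from thymus, and CD164, a sialomucin, by -2.13 (SE 0.06) from fibroblast, with each of its 5 probesets lower. CD2AP, an adaptor that links receptors to actin, differed by -2.08 (SE 0.09), VAMP8, a SNARE of endosomes and secretion, by -2.04 (SE 0.09) and CDCA7L, a MYC-associated nuclear protein, by -2.00 (SE 0.10). The transcription factors ELF1 and ZNF217 differed by -2.31 (SE 0.08) and -2.00 (SE 0.11), PBXIP1 by -2.03 (SE 0.07) and JPT2 by -2.15 (SE 0.06). The other lowest genes included 5 predicted loci without a descriptive name, LOC722935, LOC705310, LOC714398, LOC707085 and LOC702801, at -2.26 to -1.92. Of the 20 lowest genes, ELF1, JPT2 and PBXIP1 were called on 1 of 3 probesets, and CD2AP, COL1A1 and LOC705310 on 1 of 2, the second lying at 0.04, 0.17 and 1.04. On 52 of the 213 lower genes, all 6 cortex arrays lay below the median of their array, where differences are taken over weak signal.

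Of the 37 lists, that of extracellular matrix genes held the largest number of lower members, 11 of 52 (21.2%), with 0 higher. It was also the list with the most measured genes. The share was larger for antigen presentation genes, 6 of 26 (23.1%). The share of all genes called lower was 1.51%. The median difference of the matrix genes from the mean of the other tissues was -1.46. COL6A3, a chain of type VI collagen, was at 4.96 to 5.72 in cortex and 7.59 to 7.92 in thymus, a difference of -2.40 (SE 0.07). DCN, the proteoglycan decorin, was at 7.70 to 8.32 in cortex and 9.72 to 10.19 in thymus, a difference of -1.95 (SE 0.09), on 4 of 5 probesets. COL1A1, the other chain of type I collagen, differed by -1.92 (SE 0.15) on 1 of 2 probesets. ITGB8, an integrin of glia in mouse, was the member that lay highest in cortex, at 7.50 to 8.31 in cortex, against 7.36 to 7.77 in testis and 3.91 to 4.66 in thymus, and was not called. With the mean of all probesets of a gene, 6 matrix genes were lower. Of 13 fibroblast markers, the 2 collagen I genes were the ones called lower, and 1 with the mean of all probesets.

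Some genes of antigen presentation and of the interferon response were lower. Of 26 genes of the major histocompatibility complex (MHC) and its pathway, 6 (23.1%) were lower, 0 higher and 20 not called. The share of all genes called lower was 1.51%. The class I gene MAMU-B was at 8.77 to 9.20 in cortex and 10.55 to 11.16 in pancreas, a difference of -1.85 (SE 0.07), and B2M, the light chain of class I molecules, at 10.34 to 10.83 in cortex and 12.12 to 12.37 in pancreas, a difference of -1.70 (SE 0.09) on both probesets. MAMU-E and MAMU-I differed by -1.51 (SE 0.13) and -1.45 (SE 0.10), and class I genes are near copies whose probesets may share transcripts. The proteasome activator PSME2 differed by -1.33 (SE 0.07) and the thiol reductase IFI30 by -1.17 (SE 0.07). CIITA, the regulator of class II genes, was at 6.44 to 7.31 in cortex and 5.96 to 6.82 in testis. Of 40 interferon and innate sensing genes, 5 (12.5%) were lower and 35 not called. Lower were, among others, the DNA sensor IFI16 at -1.51 (SE 0.09), the RNA sensor IFIH1 at -1.29 (SE 0.09), GBP1 at -1.21 (SE 0.08) and SP110 at -1.02 (SE 0.13). GBP1 had 1 lower and 1 higher probeset among 6. IFIT1, an RNA-binding interferon-induced protein, went the other way at 7.95 to 8.39 in cortex and 7.48 to 8.02 in testis (difference 0.41, SE 0.07, below the minimum). Without the pancreas arrays 10 MHC genes and 10 interferon genes were lower, and with the mean of all probesets 3 and 1. Of all genes 4.21% were lower without pancreas and 0.884% with the mean of all probesets.

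Cytosolic ribosomal protein genes were lower for 7 of 34 (20.6%), against 1.51% of all genes, and higher for 0, with a median difference of -0.92. RPL13 was at 9.49 to 11.07 in cortex and 12.16 to 12.78 in pancreas, a difference of -2.04 (SE 0.11), on 2 of 5 probesets. RPL8 differed by -1.53 (SE 0.10), RPL29 by -1.32 (SE 0.07) and RPL9 by -1.22 (SE 0.08), and RPL29 and RPL9 each had another probeset that was higher. RPS10 lay highest of the list relative to the other tissues, at 10.12 to 10.42 in cortex, 10.55 to 11 in thymus and 7.79 to 8.45 in fibroblast. These genes have many processed copies, so that a probeset may read more than 1 of them. Without the pancreas arrays 13 were lower, where 4.21% of all genes were.

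Genes of dividing cells were far below thymus and fibroblast and close to pancreas. Over the cell cycle list the mean signal was 5.96 to 6.56 on the cortex arrays, 6.21 to 6.81 in pancreas, 8.13 to 8.73 in fibroblast and 8.87 to 9.20 in thymus. The median difference of the cell cycle genes from the mean of the other tissues was -1.47, but few were lower than in every other tissue. Of 37 genes, 2 (5.41%) were, against 1.51% of all genes. These were CKS2, a subunit of cyclin-dependent kinases, at 4.88 to 5.11 in cortex and 6.68 to 7.19 in pancreas (difference -1.91, SE 0.09), and ASPM, a spindle protein, at 2.56 to 4.15 in cortex and 4.76 to 5.65 in testis (difference -1.91, SE 0.17). TOP2A, a topoisomerase of dividing cells, was at 4.25 to 5.31 in cortex, 5.45 to 6.29 in pancreas and 11.30 to 11.77 in thymus. MKI67, a marker of proliferation, was at 5.23 to 6.30 in cortex, 5.87 to 6.74 in pancreas and 10.38 to 10.78 in thymus. Without pancreas, 17 of 37 (45.9%) were lower, against 4.21% of all genes. Among them were TOP2A at -3.58 (SE 0.12), CENPF at -2.57 (SE 0.10) and CDK1 at -2.22 (SE 0.08). E2F1, a transcription factor of the cell cycle, was at 7.28 to 8.41 in cortex and 7.19 to 8.03 in fibroblast.

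DNA replication genes gave the same picture, where 1.51% of all genes were lower than in all 4 tissues and 4.21% without pancreas. Of 34, 0 were lower than in all 4 tissues and 11 (32.4%) lower than in fibroblast, testis and thymus. Of the helicase subunits, MCM3 differed by -3.03 (SE 0.08) from the nearest of these 3 tissues and MCM5 by -2.11 (SE 0.07). PCNA, the sliding clamp, differed by -2.37 (SE 0.06). UHRF1, which brings DNA methyltransferase to new DNA, was at 3.76 to 4.87 in cortex, 4.17 to 5.29 in pancreas and 10.20 to 10.79 in thymus. DNMT1, the maintenance DNA methyltransferase, was called higher instead, at 9.05 to 9.64 in cortex and 7.71 to 8.55 in testis, a difference of 1.11 (SE 0.08, limma adjusted p = 8.32e-13) on its 1 probeset. Among apoptosis genes 0 of 32 were called in either direction, where 5.63% of all genes were higher and 1.51% lower. Without the minimum 11 were lower, against 9.47% of all genes. Without pancreas 2 were lower, PMAIP1 at -2.64 (SE 0.09) and BCL2L11 at -1.21 (SE 0.07), both of which promote cell death. In the same setting 1 was higher, where 6.71% of all genes were. The apoptosis gene highest in cortex was TNFRSF21, a death receptor, at 8.06 to 8.57 in cortex and 7.96 to 8.37 in pancreas.

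**Figure D4:**
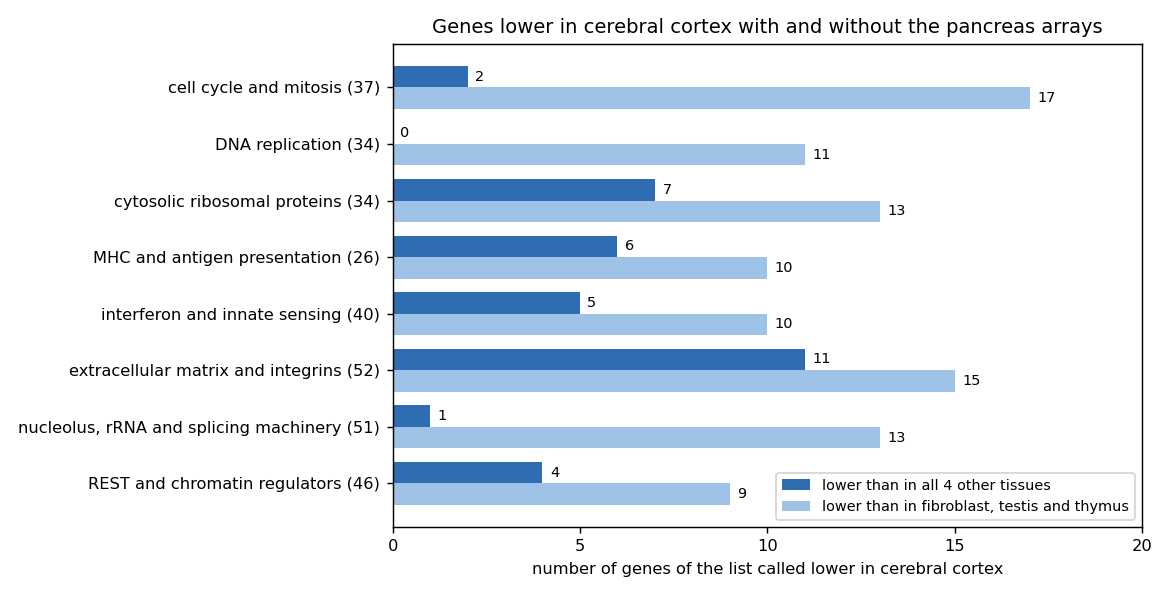
Number of genes (x axis) of 8 gene lists (y axis) that were lower in cortex than in all 4 other tissues, and lower than in fibroblast, testis and thymus with the pancreas arrays left out. The shares of all genes were 1.51% and 4.21%. Cell cycle genes number 2 and 17, and DNA replication genes 0 and 11.

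Chromatin and splicing regulators were called in both directions, 4 of 46 higher and 4 lower for chromatin (8.70% each) and 3 of 51 (5.88%) higher and 1 (1.96%) lower for the nucleolus and splicing. The shares of the splicing list were close to those of all genes, 5.63% higher and 1.51% lower. Without pancreas, 9 chromatin genes and 13 of the splicing list were lower, where 4.21% of all genes were. After quantile normalization of all 30 arrays 4 of the splicing list were lower, and with the mean of all probesets 0. Several called members have a related gene with another pattern, and these relatives were set side by side after their values had been seen. HDAC9, a class IIa histone deacetylase, was at 7.72 to 8.16 in cortex and 5.65 to 6.43 in fibroblast, a difference of 1.91 (SE 0.12). HDAC1, a class I deacetylase, was at 6.63 to 7.23 in cortex and 8.40 to 8.87 in pancreas, a difference of -1.81 (SE 0.06) on both probesets. HDAC9 lay above and HDAC1 below every array of the other tissues. In the BAF chromatin remodeling complex, mouse neurons exchange the subunit ACTL6A for ACTL6B when they leave the cell cycle. ACTL6B was at 7.66 to 8.45 in cortex and 6.07 to 6.67 in pancreas, a difference of 1.71 (SE 0.08). ACTL6A was at 5.73 to 6.09 in cortex and 6.51 to 7.12 in pancreas, a difference of -0.93 (SE 0.07, limma adjusted p = 7.14e-12) just short of the minimum, and of -2.66 (SE 0.07) without pancreas. The subunits of such complexes, SMARCC1 and PHF10, were lower by -1.30 (SE 0.08) and -1.14 (SE 0.07). The chromatin remodeler CHD5, known from brain, was 2.33 (SE 0.07) above testis, the Polycomb protein CBX6 1.12 (SE 0.09) above fibroblast, and MBD2, which binds methylated DNA, differed by -1.51 (SE 0.08).

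Among splicing regulators, NOVA1, which acts in neurons, was 1.68 (SE 0.08) above testis. PTBP1, which represses neuronal exons in other cells, was at 8.02 to 9.13 in cortex and 9.47 to 10.32 in pancreas, a difference of -1.28 (SE 0.09) on 2 of 4 probesets. Its relative PTBP2, of neurons and testis, was at 8.31 to 8.78 in cortex, 8.46 to 9.02 in testis and 5.55 to 6.05 in pancreas, and was not called. NCL, a protein of the nucleolus, was 2.28 (SE 0.09) above pancreas on 1 of 3 probesets. Among motors, KIF5B, the kinesin heavy chain that most cells use, was at 10.68 to 11.13 in cortex, overlapped with pancreas at 10.85 to 10.97 and lay 1.37 below testis, while KIF5A and KIF5C, its relatives in neurons, were higher. Of the vesicle SNAREs, VAMP2 was higher and VAMP8, at 5.78 to 6.44 in cortex and 7.71 to 8.55 in fibroblast, was lower.

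**Figure D5:**
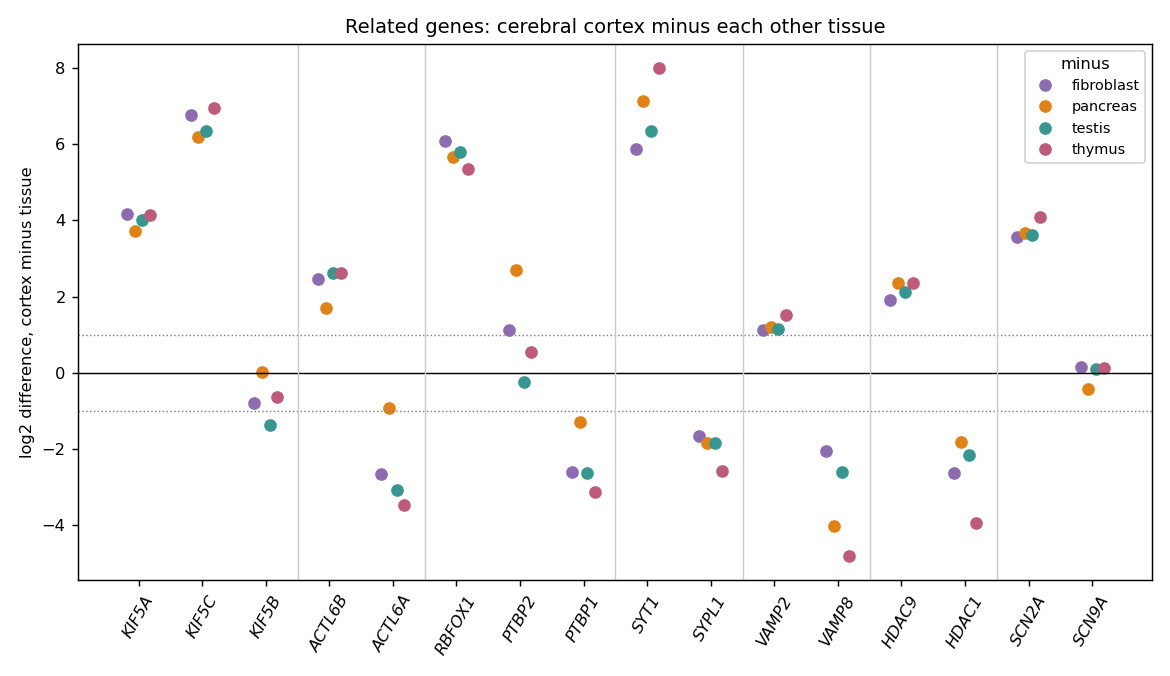
Log2 difference between cortex and each of the other 4 tissues (y axis) for groups of genes of like function (x axis), with dotted lines at the minimum difference of 1 in each direction. Not every group is 1 gene family, as SYT1 and SYPL1, or RBFOX1 and the PTBP genes, are not of the same family. KIF5A, KIF5C, ACTL6B, RBFOX1, SYT1, VAMP2, HDAC9 and SCN2A lie above the upper line against all 4 tissues, and PTBP1, SYPL1, VAMP8 and HDAC1 lie below the lower one.

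Markers of the other tissues were low in cortex. Of 10 pancreas, 11 testis and 16 thymus and lymphocyte markers, 0 were called in either direction, and TCF7, a factor of T cells, was lower without pancreas at -2.23 (SE 0.09). Over all genes 5.63% were higher and 1.51% lower, and 4.21% were lower without pancreas. In short lists such as those of this paragraph, counts of 0 or 1 say little beside these shares. A marker of another tissue can also hardly be higher in cortex than in that tissue. Over the list, the mean signal of the pancreas markers was 5.54 to 6.37 on the cortex arrays and 13.89 to 14.41 in pancreas. That of the testis markers was 5.67 to 6.54 in cortex and 8.61 to 9.18 in testis, and that of the thymus markers was 5.86 to 6.60 in cortex and 10 to 10.5 in thymus. Red blood cell genes were called for 0 of 6, with hemoglobin HBA at 8.02 to 9.01 in cortex, 9.51 to 10.22 in pancreas and 7.28 to 8.09 in fibroblast, and HBB at 5.90 to 6.84 in cortex, 7.05 to 7.42 in pancreas and 5.42 to 6.18 in fibroblast. Developmental HOX and related homeobox genes were called for 0 of 29, and the 1 that lay highest in cortex relative to the mean of the other tissues was MEIS2, at 8.44 to 8.85 in cortex, 8.61 to 9.29 in fibroblast and 6.72 to 7.44 in testis. Of 7 housekeeping genes 1 was called lower, the B2M already described.

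The size of the cortex difference depended on the center for some genes. By a tissue by center interaction in limma, 907 of 14133 genes (6.42%) gave an adjusted p under 0.05, and for 20 (0.142%) the differences at the 3 centers spanned at least 1. Among the called genes, 7 of the 795 higher and 0 of the 213 lower were of this kind. For SCN3B the difference from the mean of the other tissues was largest at Oregon, where it came to 5.54, with Yerkes at 3.59 and Nebraska at 3.44 (limma, adjusted p = 2.68e-09). DPP7, a dipeptidyl peptidase, ranged from 3.32 at Oregon to 2.25 at Yerkes, and SLC7A14, of an amino acid transporter family, from 2.51 at Nebraska to 1.22 at Yerkes. Each of these differences kept its direction at every center. DGKG, a diacylglycerol kinase that was not called, ranged from 2.20 at Oregon to 0.79 at Nebraska.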

How the data were processed

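The deposited values are log2 probeset signals of 30 arrays, 2 aliquots of 1 RNA per tissue and center. According to the methods, the authors corrected background with MAS, quantile normalized the arrays of each center separately and summarized all 30 together by RMA, so levels differ between centers and center was a term of the model. Arrays have no read depth, and their number limits the precision. limma 3.58.1 in R 4.3.3 was fitted to 52865 probesets with tissue and center (figures: Python 3.11.15, matplotlib 3.10.9). The p of a probeset was the largest of the 4 two-sided p-values where all 4 differences had the same sign, and otherwise 1, with Benjamini-Hochberg adjustment over all probesets. Calls needed an adjusted p under 0.05 and a difference of at least 1. By the platform annotation of 2016, 24969 probesets had 1 gene symbol, 361 had several and 27535 were not listed, and 24629 had an Entrez identifier found in the RefSeq gene table. For each of 14133 genes the probeset of highest mean over the 30 arrays was used. Dependence on center was tested by the interaction of tissue and center. The route was tested on simulated data.

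Named genes were the 20 with the largest difference in each direction, and of each list the 4 called members with the largest difference, the member lying least in the direction of the list by its difference from the mean of the other tissues, and members called against that direction, beside further members with their values. The members and lists were chosen with earlier results of these data known. The study's own test, SAM over 5 tissues, was not used because it does not set 1 tissue against each other. Alternatives were another normalization, no center term, aliquot means, blocks, a filter on signal, another variance model, single centers, each cortex array left out, pancreas left out and the mean of all probesets. The p-values reflect technical spread, since aliquots of an RNA are not separate animals.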

Additional observations from a re-analysis of the deposited data

Results flagged for a closer look

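Of 190 genes named or considered for naming, 5 had 1 cortex array apart from the other 5. Chance gives this in about 1 in 20 groups when all arrays are drawn from 1 population. The cortex arrays were 2 aliquots at each of 3 centers with different levels, so their share cannot be set against that rate. The gap to the nearest array divided by the range was 0.728 for CD2AP, with aliquot 2 at Yerkes at 5.83 and the other arrays at 5.13 to 5.32. It was 0.748 for UQCRB, 0.772 for RPS10 and 0.727 for MEIS2, each with the same aliquot highest, at 10.55, 10.42 and 8.85. For CKS2 it was 0.653, with aliquot 2 at Oregon lowest at 4.88 and the others at 5.03 to 5.11. So 4 of the 5 were the same array. The gaps were taken on values not adjusted for center, and the Yerkes arrays had the higher means. These were 6.898 to 6.927, against 6.349 to 6.385 at Nebraska and 6.317 to 6.333 at Oregon. Over all probesets, the interquartile range of the differences between the cortex aliquots was 0.306 at Yerkes, 0.168 at Oregon and 0.171 at Nebraska, and 0.306 was the widest of the 15 pairs of aliquots.

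For 4 genes the difference between cortex and the mean of the other tissues depended on the center with a span of at least 1, by the interaction in limma. The span was 2.1 for SCN3B, which was higher in cortex on each of its 3 probesets. It was 1.11 for CALM3, which averaged 2.67 at Yerkes, 2.45 at Oregon and 1.56 at Nebraska (limma, adjusted p = 0.0248). VAMP2 spanned 1.09, with 1.87 at Oregon and 0.78 at Nebraska (limma, adjusted p = 0.00429), and GRIN1 spanned 1.07, with 2.28 at Oregon and 1.21 at Nebraska (limma, adjusted p = 0.000134). All 4 were higher in cortex at each center. At Nebraska alone, VAMP2 was 0.55 and CALM3 0.79 above the nearest tissue, below the minimum of 1. Over the 190 genes, 33 gave an adjusted p under 0.05 at any span, where 6.42% of all genes did.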

How the results depend on the processing

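The higher and lower calls, 2369 and 459 probesets, moved by less than 1.5 times under most alternatives. They were 2356 and 530 after quantile normalization of all 30 arrays together, 2368 and 456 without a center term, 2369 and 455 with aliquot means, and unchanged with tissue by center as a random block (correlation 0.36) or with a variance trend. Single centers gave 2189 to 2517 and 415 to 533, and leaving out each cortex array gave 2341 to 2436 and 448 to 478. Among the brighter 26432 probesets 1490 were higher and 443 lower, where fewer probesets were tested. Without the pancreas arrays 2786 were higher and 1343 lower, including all 2369 and all 459, and the share of higher calls was 67.5% in place of 83.8%. Of 854 list members, 175 were higher and 37 lower. The 37 became 21 with the mean of all probesets, 50 after quantile normalization and 102 without pancreas, where 3 tissues had to be exceeded in place of 4.

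Over all genes, the 213 lower became 125 with the mean of all probesets and 255 after quantile normalization. With that mean, ELF1 (-0.82), LOC705310 (-0.80), JPT2 (-0.95), RPL13 (-0.58), PBXIP1 (-0.95) and COL1A1 (-0.88) fell short of the minimum, and CD2AP was at -1.09. The other 34 of the 40 most extreme genes kept their call under every alternative in which they were tested, and 37 of the 40 were among the brighter probesets. Genes with a span of at least 1 between centers numbered 20, and 21 after quantile normalization, an alternative chosen after seeing the data. A replicate block with the aliquot numbers gave 2369 and 459. The numbers were not taken as pairs, because over 30 pairs of tissues the correlation of their deviations was -0.304 to 0.35 and only 3 were over 0.1. These 3 were at Yerkes, between cortex and testis (0.35), cortex and thymus (0.22) and testis and thymus (0.163), and the lowest 3 were those of the same tissues with Yerkes fibroblast.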

Other observations

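Further gene groups were put together after the values had been seen, so their counts are descriptions and carry no test. Genes of endoplasmic reticulum translocation, folding and export were lower for 11 of 76 (14.5%) and higher for 1, where 1.51% of all genes were lower. Their median difference from the mean of the other tissues was -1.19. OSTC, a subunit of the oligosaccharyltransferase, differed by -1.45 (SE 0.08) from testis, TRAM1, of the translocation site, by -1.39 (SE 0.08), the disulfide isomerase PDIA4 by -1.37 (SE 0.06) from thymus and the cargo receptor LMAN1 by -1.13 (SE 0.07) from thymus. SPCS2, a subunit of the signal peptidase, was the exception at 3.39 (SE 0.09) above pancreas.

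Genes of actomyosin, annexins and focal adhesions were lower for 14 of 64 (21.9%) and higher for 2. Of all genes 1.51% were lower and 5.63% higher. S100A10 and ANXA2, which form a complex at membranes, differed by -1.29 (SE 0.07) and -1.35 (SE 0.08), and ARPC1B, of the actin-nucleating ARP complex, by -1.37 (SE 0.06). The higher ones were isoforms, the profilin PFN2 at 2.17 (SE 0.06) above fibroblast and the talin TLN2 at 1.57 (SE 0.06) above pancreas. Kinase, phosphatase and related isoforms of neurons were higher for 13 of 33 (39.4%) and lower for 0. EEF1A2, the elongation factor form of neurons and muscle, was 4.43 (SE 0.09) above pancreas, the kinase MAPK10 4.33 (SE 0.11), the phosphatase subunit PPP2R2C 4.19 (SE 0.12) above testis and the kinase PAK1 2.34 (SE 0.07) above testis.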
